A study of Mus musculus with 7 samples.

Results

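Canonical histone genes were described as a group of loci in a map of DNA replication origins. The group holds the 63 protein-coding genes among 21631 of the mm10 RefSeq table (assembly GRCm38.p6) that carry the symbols H1f1 to H1f6, or H2ac, H2bc, H3c or H4c followed by a number. They fall into 6 H1 genes, 17 H2A genes, 16 H2B genes, 12 H3 genes and 12 H4 genes. Members closer than 500 kb on a chromosome were taken as 1 cluster, which gave 10 genes on chromosome 3 (chr3:96219885-96270192), 22 genes in cluster A of chromosome 13 (chr13:21715711-22043658) and 31 genes in cluster B of chromosome 13 (chr13:23531044-23934913). The members were chosen by symbol and not by any measured value.

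Replication origins were mapped by sequencing short nascent strands, the short DNA pieces left where a fork has just begun, from mouse embryonic stem cells (mESCs). Each condition had 2 libraries and 1 deposited list of origins, and each library had its own list of MACS peaks. WT cells were untreated. APH cells carried the TetO-CDC6 transgene and were kept for 2.5 h in 0.5 µM aphidicolin, which inhibits the replicative DNA polymerases. CDC6 cells carried the same transgene and were given 1 µg/ml doxycycline for 30 h to raise CDC6, a factor that helps load the replicative helicase. WT 1 came from another mESC line, labelled WT and deposited earlier, whereas WT 2 and the 4 APH and CDC6 libraries came from TetO-CDC6 mESCs. WT 1 and WT 2 therefore differ in cell line, and WT 1 differs from the APH and CDC6 libraries in cell line as well as in treatment. Whether both libraries of a condition are from separate cultures is not in the labels, so the p-values reflect the spread between these samples, part or all of which may be technical. Sequenced DNA gives no RNA level, so neither the CDC6 level nor markers of the cell type were checked.

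Canonical histones are made in bulk in S phase, when newly replicated DNA has to be packed into nucleosomes. Their genes are short, have no introns in most cases, sit in tandem and divergent groups, and give mRNAs that end in a stem-loop in place of a poly(A) tail. Pairs of H2A and H2B genes often share 1 promoter region and point away from each other. H2A, H2B, H3 and H4 form the nucleosome core, and H1 binds the linker DNA between cores.

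The RefSeq promoter table of GRCm38.p6 held 58 of the 63 members, and 6 of these promoters are printed because they stand for the classes of origin found at the genes. H2ac19 (chr3:96240375-96240624 on the minus strand) had origins in all 3 lists and H2ac18 (chr3:96245247-96245496 on the plus strand) in the APH and CDC6 lists, and they form a near copy of each other. H2ac21 (chr3:96219635-96219884 on the plus strand) lies in the same cluster and had no origin in any list. Of the linker histone genes, H1f2 (chr13:23738557-23738806 on the plus strand) had origins in all 3 lists, H1f4 (chr13:23622559-23622808 on the minus strand) in the APH and CDC6 lists, and H1f6 (chr13:23695561-23695810 on the plus strand) in none. Each line gives the 250 bases before the start site, 5′ to 3′, and capitals mark the letters CCAAT or TATAAA on either strand (ATTGG is CCAAT on the other strand).
H2ac19: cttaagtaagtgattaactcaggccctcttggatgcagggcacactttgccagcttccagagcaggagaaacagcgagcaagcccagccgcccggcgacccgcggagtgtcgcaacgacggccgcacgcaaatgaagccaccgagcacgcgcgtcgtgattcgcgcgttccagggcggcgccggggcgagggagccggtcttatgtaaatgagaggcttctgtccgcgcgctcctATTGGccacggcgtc
H2ac18: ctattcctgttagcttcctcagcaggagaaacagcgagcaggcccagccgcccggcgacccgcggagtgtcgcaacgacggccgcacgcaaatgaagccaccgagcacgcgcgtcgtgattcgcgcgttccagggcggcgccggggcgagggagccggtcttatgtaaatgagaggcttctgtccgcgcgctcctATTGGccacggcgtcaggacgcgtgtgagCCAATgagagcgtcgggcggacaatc
H2ac21: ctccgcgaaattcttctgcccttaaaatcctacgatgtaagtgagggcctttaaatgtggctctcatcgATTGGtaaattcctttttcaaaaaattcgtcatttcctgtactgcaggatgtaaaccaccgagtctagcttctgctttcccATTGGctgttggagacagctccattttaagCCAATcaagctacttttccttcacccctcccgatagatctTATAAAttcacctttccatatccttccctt
H1f2: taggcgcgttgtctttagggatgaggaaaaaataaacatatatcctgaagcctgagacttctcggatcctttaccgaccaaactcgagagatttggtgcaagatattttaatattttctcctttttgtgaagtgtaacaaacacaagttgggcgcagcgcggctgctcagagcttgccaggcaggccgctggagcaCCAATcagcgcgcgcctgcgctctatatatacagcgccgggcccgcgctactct
H1f4: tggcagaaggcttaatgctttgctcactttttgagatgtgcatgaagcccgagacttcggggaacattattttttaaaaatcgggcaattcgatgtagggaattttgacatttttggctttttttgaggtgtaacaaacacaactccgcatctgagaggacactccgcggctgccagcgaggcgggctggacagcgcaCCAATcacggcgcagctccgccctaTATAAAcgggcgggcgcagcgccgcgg
H1f6: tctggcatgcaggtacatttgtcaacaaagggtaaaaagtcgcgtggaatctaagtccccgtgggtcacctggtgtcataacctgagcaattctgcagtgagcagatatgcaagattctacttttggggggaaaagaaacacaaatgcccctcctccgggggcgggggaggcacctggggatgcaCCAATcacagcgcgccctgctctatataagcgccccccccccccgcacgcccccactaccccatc
In these windows both chromosome 3 copies hold CCAAT without TATAAA, whereas H2ac21 and H1f4 hold both motifs.

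Lists differed in length, which bears on every count. The WT list held 20178 origins, the APH list 31653 and the CDC6 list 31384. The MACS lists held between 71435 peaks (APH 2) and 94747 peaks (WT 1). Read numbers are not in the files, so the depth behind the lists is unknown and precision is limited by how many peaks there are. A second set of deposited lists per library went against its labels: the WT origin list was wholly contained in the second list labelled APH 1, the APH origin list in the one labelled CDC6 1, and the CDC6 origin list in the one labelled CDC6 2. Against this, at least 99.4% of each origin list was overlapped by the MACS peaks of either library of its own condition, and the origin lists and MACS peaks were used as labelled.

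Fewer histone genes than the genome-wide share had an origin within 1 kb in the WT and APH lists, and the CDC6 list came closer to that share. The WT list placed an origin at 13 of the 63 genes (20.6%), beside 43.5% of all protein-coding genes. The APH list placed one at 16 genes (25.4%, beside 47.9%) and the CDC6 list at 30 genes (47.6%, beside 53.3%). Within 1 kb of a gene end, the counts were 12, 15 and 29 genes (19%, 23.8% and 46.0%), beside 32.2%, 33.3% and 40.6% of all genes. This window depends less on gene length. It is still narrower for short genes such as these, where the windows of both ends overlap, so gene length is not fully removed. Each condition has 1 list, so these counts have no replicate error and were not tested. When all lists were shortened to the strongest origins, as many as the WT list holds, the counts were 13, 14 and 16 genes, so most of the added CDC6 genes rested on its lower-scoring origins.

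**Figure D1:**
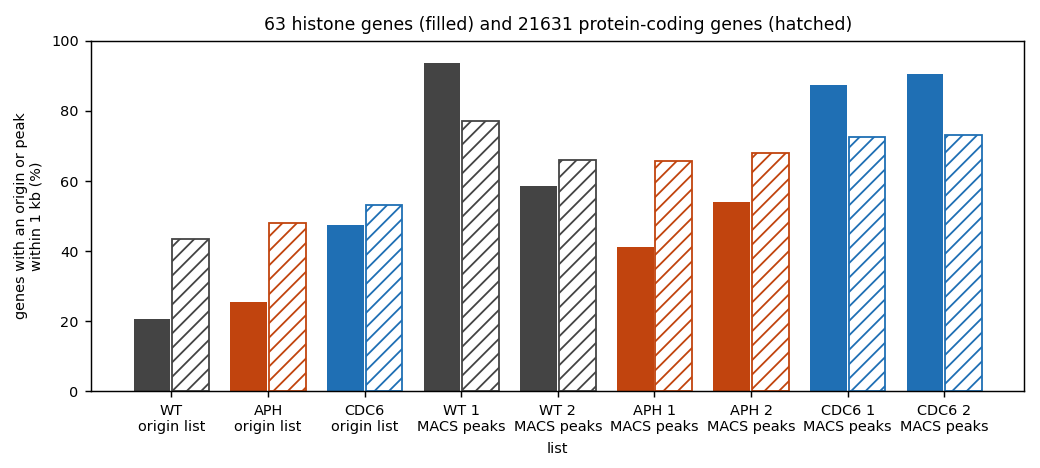
Share of genes (%, y axis) with an origin or MACS peak within 1 kb in each origin list and each library (x axis), for the 63 histone genes (filled bars) and all 21631 protein-coding genes (hatched bars). The filled bars stand below the hatched bars for all 3 origin lists, and in WT 1 and both CDC6 libraries they stand above them for MACS peaks.

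Because neighbouring histone genes are closer than the window, origins were also counted once each. The WT list had 9 distinct origins at histone genes, the APH list 12 and the CDC6 list 23. In the CDC6 list 13 of the 23 were within 1 kb of at least 2 histone genes, and 1 reached 3 genes. Merged over the lists they formed 23 regions, of which 8 were held by all 3 lists, 10 by the CDC6 list alone, 3 by APH and CDC6, 1 by WT and CDC6, and 1 by APH alone. At the level of genes, 11 had origins of all 3 lists (beside 37.5% of all genes), 17 had a CDC6 origin and no WT origin (27.0% of the group, beside 12.8%), and 33 had none, where 59.1% of all genes had at least 1. No histone gene had a WT origin without a CDC6 origin, against 3.01% of all genes. An APH origin without a WT origin was present at 5 genes (beside 8.91%) and the reverse at 2 genes, H4c1 and H3c1 (beside 4.50%).

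Each cluster was also counted on its own. A CDC6 origin and no WT origin was present at 7 of 22 genes in cluster A, 8 of 31 in cluster B and 2 of 10 on chromosome 3. In cluster A the WT, APH and CDC6 lists had origins at 5, 6 and 12 of 22 genes. In cluster B they had origins at 4, 4 and 12 of 31 genes, and on chromosome 3 at 4, 6 and 6 of 10 genes. An origin of the CDC6 list alone was found at 12 of the 63 genes, beside 1434 of all 21631 genes. All 12 were on chromosome 13, which holds 53 of the 63 members. All 6 genes of chromosome 3 with an origin also had an APH origin. Counted over the whole span with 1 kb on each side, cluster A held 5 WT origins, 7 APH origins and 17 CDC6 origins, which is 15.2, 21.2 and 51.5 per Mb, where chromosome 13 had 7.46, 11.6 and 11.4 per Mb. Cluster B held 4, 8 and 10 (9.86, 19.7 and 24.6 per Mb). The chromosome 3 cluster held 2, 3 and 4 (38.2, 57.4 and 76.5 per Mb), where the chromosome had 6.87, 11.3 and 10.9 per Mb. All 3 clusters were denser in origins than their chromosome in all 3 lists. These rates rest on few origins, as with the 4 WT origins of cluster B (9.86 beside 7.46 per Mb), and were not tested. The chromosome rates cover whole chromosomes and were not matched for gene density. Not all origins of the clusters lay at histone genes: 7 of the 17 CDC6 origins of cluster A were over 1 kb from any member, as were 4 of the 8 APH origins of cluster B.

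**Figure D2:**
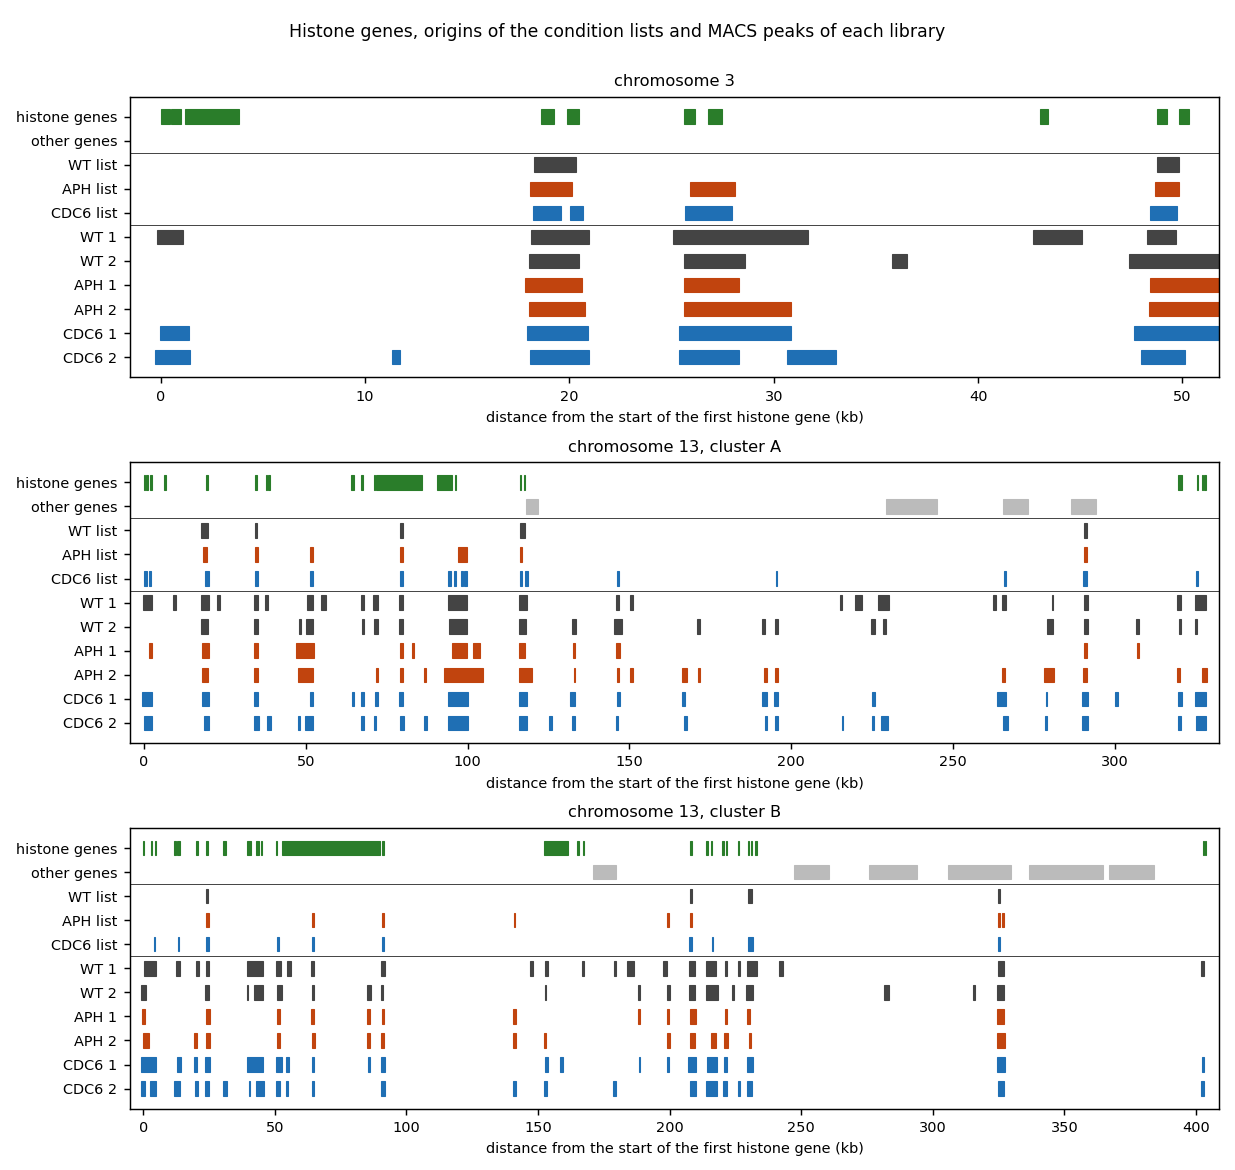
Histone genes, other protein-coding genes, origins of the 3 lists and MACS peaks of the 6 libraries along each cluster, with distance from the start of the first histone gene on the x axis (kb) and 1 row for each list or library. Chromosome 3 shows 2, 3 and 4 origins in the WT, APH and CDC6 rows, and the CDC6 row of cluster A shows the most origins, 17.

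MACS peaks, which are called for each library, gave the replicated view. A MACS peak was present within 1 kb of 59 histone genes in WT 1 and 37 in WT 2, of 26 in APH 1 and 34 in APH 2, and of 55 in CDC6 1 and 57 in CDC6 2. All genes gave 77.2%, 66.0%, 65.6%, 68.0%, 72.5% and 73.1% in the same order, beside 93.7%, 58.7%, 41.3%, 54.0%, 87.3% and 90.5% of the histone genes. The means were 48 ± 15.6 genes in WT, 30 ± 5.66 in APH and 56 ± 1.41 in CDC6 (SD, n = 2 each). In both WT libraries a peak was present at 37 genes (58.7%, beside 63.0%), in both APH libraries at 24 (38.1%, beside 62.9%) and in both CDC6 libraries at 53 (84.1%, beside 69.2%). Both APH libraries were below all 4 others, and the WT libraries were far apart, with WT 1 above both CDC6 libraries and WT 2 close to APH 2. Counted once each, the peaks at these genes numbered 33 and 24 in WT, 19 and 24 for APH, and 32 and 35 for CDC6. With a −log10 q-value of at least 5 required, the counts were 14 and 17 genes in WT, 16 and 18 for APH, and 24 and 28 for CDC6. At that limit the APH libraries did not stand below WT. Among the 20000 strongest peaks of each library, 22.2% to 38.1% of the histone genes had a peak, beside 38.4% to 51.1% of all genes. The extra peaks of WT 1 at histone genes were thus mostly weak ones. For CDC6 this was less clear, as both libraries stayed above the others at the q-value limit. Among the 20000 strongest peaks, CDC6 1 had a peak at 24 histone genes and CDC6 2 at 18, beside 14 and 20 in WT and 14 and 18 for APH.

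A peak in all 6 libraries was present at 22 histone genes (34.9%, beside 55.8% of all genes), 6 on chromosome 3 and 16 on chromosome 13. H2bc14, a core H2B gene of cluster A, and H1f6, the testis-specific linker histone, had a peak in none. H1f5 had a peak only in CDC6 1 (fold 2.19 over control), H3c6 only in CDC6 2 (2.48), and H4c3 and H4c14 only in WT 1 (2.43 and 2.63). The weak folds of these single peaks are the authors' values and serve only to describe the peaks.

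**Figure D3:**
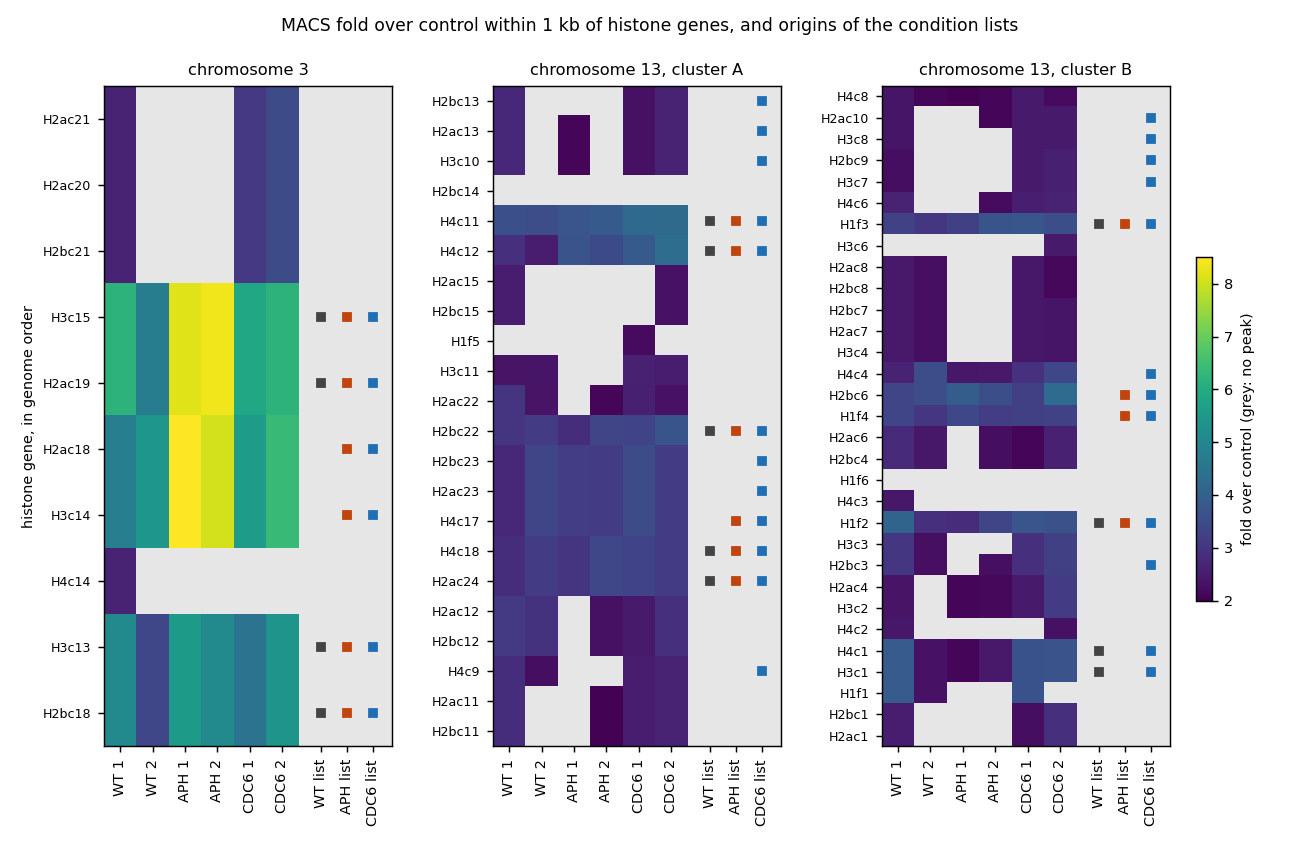
Highest MACS fold over control within 1 kb of each histone gene (rows, in genome order) in each library (columns), by colour, with grey for no peak, and squares for an origin of the WT, APH or CDC6 list. The 2 blocks of chromosome 3 at H3c15 with H2ac19 and at H2ac18 with H3c14 reach folds of 8.06 to 8.50 in the APH libraries, and much of chromosome 13 is grey in the APH columns.

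The linker histone genes divided evenly. H1f2 and H1f3, which encode widely expressed somatic H1 subtypes, had origins of all 3 lists, and H1f4, another somatic subtype, had origins of the APH and CDC6 lists. The H1f2 region (chr13:23738590-23739679) had MACS folds of 4.09 and 2.90 in WT, 2.82 and 3.36 for APH, and 3.72 and 3.62 for CDC6. The H1f3 region (chr13:23554719-23556000) had 3.29 and 3.02, 3.22 and 3.69, and 3.73 and 3.55. At H1f4 (chr13:23621758-23622587) the folds were 3.35 and 3.04, 3.40 and 3.18, and 3.23 and 3.25. H1f4 thus lacked a WT origin although both WT libraries had a peak there, at the 83.0 and 83.7 percentiles of their lists by q-value. H1f1, H1f5 and H1f6 had no origin in any list.

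The strongest signal of the group came from H3, H2A and H2B genes on chromosome 3. Its 3 regions ranked above the 11 regions of cluster A and the 9 of cluster B in every library by q-value, at percentiles from 93.9 to 99.7. The region of H3c15 and H2ac19 (chr3:96237968-96240568) spans 2601 bp and was held by all 3 lists. Its folds were 6.19 and 4.75 in WT, 8.18 and 8.35 for APH, and 5.90 and 6.19 for CDC6. Origins there lay over the H3c15 gene (chr3:96238479-96239127), with midpoints 63 bp (WT) and 142 bp (APH) from its start site, while the CDC6 list split the region into 2 origins.

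The neighbouring region of H2ac18 and H3c14 (chr3:96245566-96247966) was held by the APH and CDC6 lists and not by the WT list. Folds were 4.79 and 5.42 in WT, 8.50 and 8.06 for APH, and 5.57 and 6.37 for CDC6. Both WT libraries had strong peaks there, at the 95.4 and 99.3 percentiles, so its absence from the WT list is not an absence of WT signal. The region was present in 5 of the 6 second lists and missing from the one labelled WT 1. The region of H3c13 and H2bc18 (chr3:96268289-96269722) was in all 3 lists, with folds of 5.12 and 3.39, 5.55 and 5.12, and 4.48 and 5.37. At the other end of the cluster H2ac21, H2ac20 and H2bc21 shared a peak in WT 1 and both CDC6 libraries (folds 2.66, 3.09 and 3.52) and had no origin.

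Of the 12 H4 genes, 7 had an origin. H4c11 (region chr13:21733439-21735803) and H4c12 (chr13:21749912-21750960) were in all 3 lists, with folds of 3.53 to 4.24 and 2.51 to 4.33 over the 6 libraries. H4c18 shared an origin of all 3 lists with H2ac24 (chr13:21831803-21833375; folds 2.86 to 3.39). H4c17 had a CDC6 origin at its start site, shared with H2ac23, and a separate APH origin beside the gene (chr13:21812675-21815429), both inside 1 MACS peak in each library. H4c1 and H3c1 shared the only region of WT and CDC6 without APH (chr13:23760969-23762611), and its folds were 3.86 and 2.33 in WT, 2.12 and 2.45 for APH, and 3.64 and 3.67 for CDC6. Both APH libraries did have a peak there, at the 14.7 and 59.0 percentiles of their lists. H4c4 (6 libraries with a peak) and H4c9 (4 libraries) had CDC6 origins only, and H4c2, H4c3, H4c6, H4c8 and H4c14 had none.

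H2A and H2B genes had the lowest shares of the 5 families in the WT list, 2 of 17 and 2 of 16, against 3 of 12 for H3, 4 of 12 for H4 and 2 of 6 for H1. In the CDC6 list they were at 6 of 17 and 7 of 16, H3 and H4 at 7 of 12 each, and H1 at 3 of 6. Origins of the CDC6 list alone were found at H2bc13, H2ac13 and H3c10 (chr13:21715716-21716642 and chr13:21717285-21717872), at H2bc23 and H2ac23 (chr13:21809813-21810653), at H2ac10 and H3c8 (chr13:23535145-23535644), at H2bc9 and H3c7 (chr13:23544189-23544674), at H2bc3 (chr13:23747071-23747675), and as a second origin beside H2ac24 (chr13:21833581-21834380). The 10 regions of the CDC6 list alone, all on chromosome 13, had folds of 2.09 to 3.53. On the same chromosome the regions of all 3 lists had folds of 2.51 to 4.33, so the ranges overlapped. Only 2 of the 10 had a MACS peak in all 6 libraries, against all 8 regions of all 3 lists. The origin at H2bc22 (chr13:21794813-21795692) and 1 of the regions at H2bc6 (chr13:23595258-23595929) lay about 7.8 and 14 kb from any histone start site, inside gene models of 14079 bp and 37455 bp. The other region at H2bc6 is the one at the H1f4 start site.

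Among the 58 members with a known start site, 9 pairs of H2A and H2B genes stood head to head with start sites 164 to 281 bp apart. An origin was found at 3 of these pairs, H2bc13 with H2ac13, H2bc23 with H2ac23, and H2ac22 with H2bc22, the last through the distant H2bc22 origin. By gene, 5 of the 18 paired genes had an origin of any list, against 23 of the 40 other members with a known start site. Pairs were counted only between members with known start sites, so the 40 may hold further paired genes. H2ac6 and H2ac20, without an origin, lie next to H2bc4 and H2bc21, which have no start site in the promoter table. H2ac24, with an origin, lies next to H4bc24, a gene with a histone-type symbol outside the naming rule.

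Some chromosome 13 genes had a peak in every library but the APH ones. H3c11, H4c9, H2ac8, H2bc8, H2bc7, H2ac7, H3c4 and H3c3 had a MACS peak in both WT and both CDC6 libraries and in neither APH library. These 8 genes are 12.7% of the group, beside 1.25% of all genes with that pattern. The pattern was picked out after the values were seen. The genes share peaks: the 5 genes from H2ac8 to H3c4 lay under 1 peak in WT 1 and in CDC6 1, so the 8 genes rest on 4 or 5 peaks in each library. The peaks were of modest strength, with folds of 2.15 to 3.23 and median percentiles of 30.0 to 57.9 by library. A further 9 genes had peaks in WT 1 and both CDC6 libraries and nowhere else (14.3%, beside 2.44%), among them H2ac1 and H2bc1, the testis-type H2A and H2B pair. For 6 genes, H2ac22, H2ac12, H2bc12, H2ac6, H2bc4 and H2bc3, the peak was missing in APH 1 alone (9.52%, beside 2.15%). In all, 25 genes had a peak in at least 1 WT or CDC6 library and none in APH (39.7%, beside 12.6%). These patterns rest on shared peaks as well. The 9 genes had 5 distinct peaks in each of their libraries, and the 6 genes 4 or 5. The 25 genes had 14 distinct peaks in WT 1, 6 in WT 2, 11 in CDC6 1 and 13 in CDC6 2. The shares of histone genes thus count some peaks more than once.

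To compare libraries gene by gene, the bases covered by MACS peaks were counted in each gene with 1 kb on each side. H2ac7, a core H2A gene at chr13:23574381-23574915, had 2535 covered bases in WT 1 and in WT 2, 0 in both APH libraries, and 2535 and 1861 in CDC6. H3c4 had 1679 and 1751 in WT, 0 and 0 for APH, and 1746 and 2136 for CDC6. H4c9 had 1827 and 663, 0 and 0, and 1923 and 1681. At all 3 genes both APH libraries were below every other library, and WT and CDC6 overlapped.

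Other genes had more covered bases outside WT, or in WT 1 alone. H2ac4 had 433 covered bases in WT 1 and 0 in WT 2, 463 and 999 for APH, and 991 and 1074 for CDC6. H3c2, its neighbour, had 879 and 0, 656 and 1466, and 1101 and 1478. H1f1 had 1748 and 135 in WT, 0 and 0 for APH, and 144 and 0 for CDC6. It was high in WT 1 alone. H3c15 had 2103 and 2222, 2412 and 2217, and 2322 and 2183. Covered bases cannot exceed the window, the gene of 649 bp and 1 kb on each side, so they say little about the strength of a region as wide as that of H3c15, whose folds are given above.

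**Figure D4:**
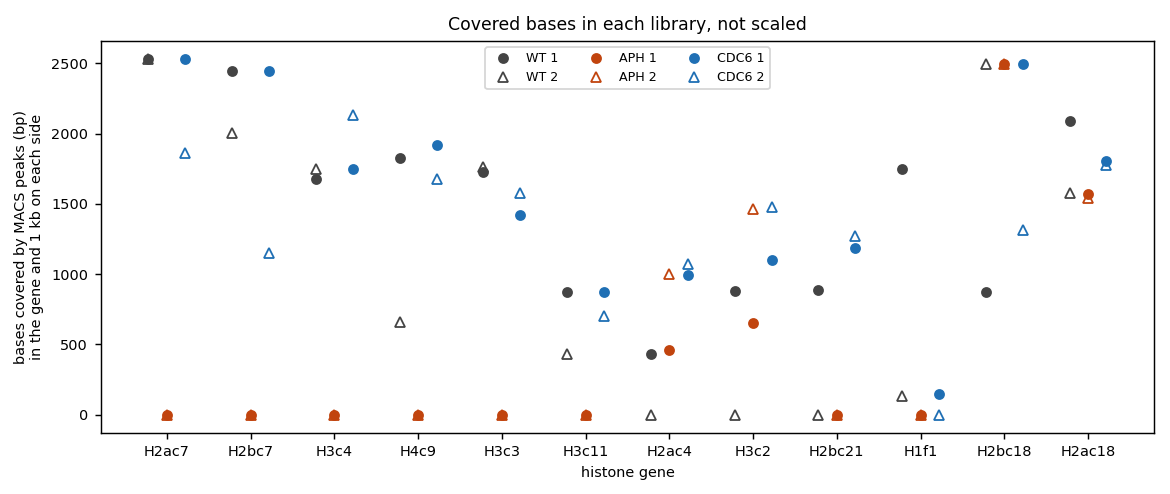
Bases covered by MACS peaks within each gene and 1 kb on each side (y axis, bp, not scaled) for 12 histone genes (x axis), with 1 point for each library and colour for condition. The first 6 genes sit at 0 in both APH libraries, and at H1f1 WT 1 (1748) is far above WT 2 (135).

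Covered bases were tested with limma over the 16802 genes covered in at least 2 libraries, 57 of them histone genes, after scaling to the mean total. No gene was called in any contrast at an adjusted p of 0.05 (0.00% called higher or lower), while 1464 genes for APH against WT, 1095 for CDC6 against WT and 2041 for APH against CDC6 had an unadjusted p under 0.05 (8.71%, 6.52% and 12.1%). Of the 57 histone genes, 8, 1 and 16 did. All 8 and all 16 were lower in APH, and the 1 gene, H2ac4, was higher in CDC6. The smallest adjusted p of any fitted gene was 0.256 for APH against WT and 0.206 for APH against CDC6. Of the histone genes, H2ac7, H2bc7, H3c4, H3c3 and H4c9 had these values in both contrasts. Benjamini-Hochberg adjustment can give genes of different p the same value, so these 5 genes need not rank first among all genes. For CDC6 against WT the lowest among histone genes was 0.755, at H2ac4 (log2 difference 2.46, SE 0.938). Next to it were H3c2 (2.33) and H2bc21 (2.27), and on the lower side H1f1 (-1.94), H2ac22 (-0.85) and H2bc22 (-0.21). For APH against WT the higher histone genes of smallest p were H2ac4 (2.11), H3c2 (2.17) and H2bc18 (0.98), and for APH against CDC6 H2bc18 (0.63), H3c15 (0.23) and H3c14 (0.20). These log2 differences varied with the settings. With a constant 10 times as large, H2ac4 and H3c2 differed by 0.66 and 0.76 between APH and WT, and with a −log10 q-value of at least 2 both genes had 0 covered bases in all WT and APH libraries. Without WT 1 their differences were 3.14 and 3.62, and without WT 2 1.09 and 0.73. H2bc18 moved to -0.05 without WT 1 and to 2.00 without WT 2. For CDC6 against WT, the values without WT 1 and without WT 2 were 3.49 and 1.43 for H2ac4, 3.77 and 0.88 for H3c2, 3.72 and 0.82 for H2bc21, and -0.73 and -3.14 for H1f1. The larger constant gave 0.82, 0.82, 0.79 and -0.60 for these 4 genes. No fold is given for the genes listed at 0 covered bases in APH.

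Over the 57 fitted genes, 18 were higher and 39 lower in APH than in WT (31.6% higher, beside 48.6% of all fitted genes), with a median log2 difference of -0.96 beside -0.03. For CDC6 against WT 48 were higher and 9 lower (84.2%, beside 59.4%; median 0.34 beside 0.15). For APH against CDC6 10 were higher and 47 lower (17.5%, beside 38.5%; median -1.75 beside -0.21). The contrasts share libraries and are set side by side only, and the medians depend on the constant of 100 bases added before the logarithm. Neighbouring histone genes can lie under the same peak. The histone genes counted as higher, lower or called, here and below, are therefore not separate observations. The calls depended on the WT libraries. Without WT 1, limma called 1034 genes for APH against WT, 2329 for CDC6 against WT and 1377 for APH against CDC6. Of the histone genes, 5 were called lower in APH than in WT (8.77%, beside 2.73% of all genes called lower) and 14 lower in APH than in CDC6 (24.6%, beside 5.93%), with none higher. For CDC6 against WT 8 were called higher (14.0%, beside 10.4%) and none lower. H2bc21 was one of them, with an adjusted p of 0.0230 in limma. In either direction, 13.9% of all genes were called in that contrast. Without WT 2 the counts were 1395, 0 and 1388 genes. Of the histone genes, 13 were lower in APH than in WT (22.8%, beside 5.68%) and 14 lower in APH than in CDC6 (24.6%, beside 6.01%). Where 1 WT library is left, it is assumed to vary like the other conditions.

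At a wider scale, the 4 fitted 1 Mb bins that hold the clusters were not called in any contrast. The bin from 21 to 22 Mb of chromosome 13 had 48 and 47 MACS peaks in WT, 31 and 34 for APH, and 40 and 47 for CDC6 before scaling. The bin from 96 to 97 Mb of chromosome 3 had 86 and 57, 50 and 60, and 64 and 62. With limma no bin of 2519 was called in any contrast (0.00%; 53, 49 and 77 bins at an unadjusted p under 0.05), and no histone bin reached an unadjusted p of 0.05. For APH against WT the log2 difference of these bins was -0.28 (SE 0.208, adjusted p 0.997 by limma) at 21 Mb and -0.09 (SE 0.264, adjusted p 0.997 by limma) at 96 Mb of chromosome 3. The calls depended on the WT libraries here too. Without WT 2, 981 bins were called for APH against WT (38.9%, 24.0% being higher in APH), among them the bin from 22 to 23 Mb of chromosome 13, which was higher in APH (log2 difference 0.50). Without WT 1, 776 bins were called for CDC6 against WT (30.8%, 17.1% being lower in CDC6), among them the same bin, which was lower in CDC6 (-0.69). That bin had 32 and 55 peaks in WT, 40 and 31 for APH, and 31 and 33 for CDC6. It holds only the end of cluster A.

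The promoters of the group differ from those of most genes in base composition, which was described over windows of 300 bases, 250 before the start site and 50 after it. The median G + C content was 45.3% for the 58 histone promoters and 56.3% for 17274 promoters of all genes. TATAAA on either strand was found in 58.6% of the histone promoters and 13.4% of all, CCAAT in 86.2% and 39.4%, and GGGG, the run of guanines that G-quadruplexes are built from, in 58.6% and 88.1%. By class of origin the median G + C content was 50.3% for the 11 genes of all 3 lists, 45.7% for the 16 genes with a CDC6 and no WT origin, and 44.2% for the 30 genes with none. The ranges overlapped, at 42.0 to 72.7%, 38.0 to 72.7% and 33.3 to 54.7%. TATAAA was found in 45.5%, 43.8% and 70.0% of the promoters of these classes, and GGGG in 54.5%, 50.0% and 63.3%. H4 promoters stood apart within the group in holding CCAAT in 3 of 11 cases and GGGG in all 11.

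Several histone promoters are near copies of each other. Of the 58, 11 share a string of 50 bases with another position in the promoter table (19%, beside 8.52% of all promoters). H4c17 and H4c18 are 99.0% identical, H3c15 and H3c14 90.2%, H4c11 and H4c12 87.3%, and the printed windows of H2ac19 and H2ac18, extended to 300 bases, 75.3%. All 11 had an origin in at least 1 list and a MACS peak in all 6 libraries, and none of the 30 promoters of genes without an origin shares such a string. The sources used here do not say how reads that match several positions were placed, and the part of these copies in the result was not tested. Among the 52 other members, 7 had a WT origin, 7 an APH origin and 19 a CDC6 origin. These 52 include the members without a promoter in the table, which were not checked for copies. This count without the known copies was chosen after seeing the data.

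**Figure D5:**
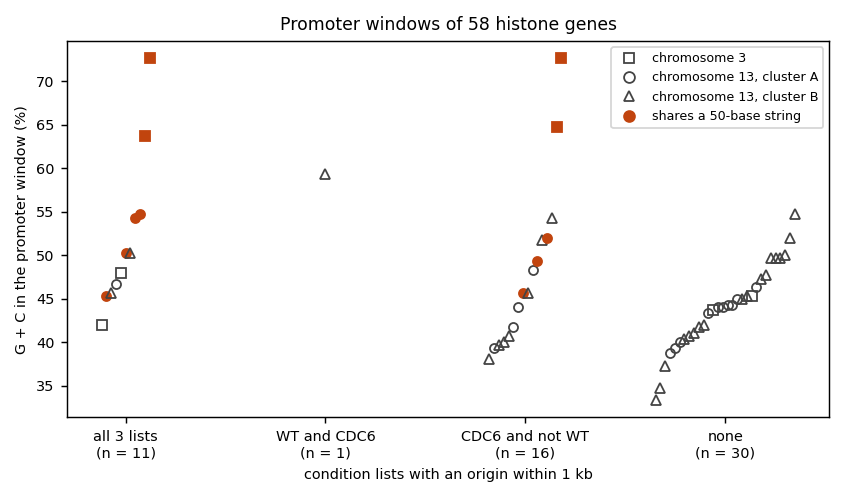
G + C content (%, y axis) of the 300-base promoter windows of 58 histone genes, grouped by the origin lists within 1 kb of the gene (x axis), with the symbol giving the cluster and filled symbols marking promoters that share a 50-base string with another position. The 11 filled symbols all stand in classes with an origin, and the 4 above 60% are the chromosome 3 copies.

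Other genes of the same pathway were counted from lists chosen by name. Most of them are longer than the canonical histone genes, so the windows over them are wider. All protein-coding genes had shares of 43.5%, 47.9% and 53.3%, and of 32.2%, 33.3% and 40.6% at a gene end. Of 11 histone variant genes that are expressed outside S phase, 9 had a WT origin, 10 an APH origin and 10 a CDC6 origin (81.8%, 90.9% and 90.9%). At a gene end the counts were 8, 9 and 9 (72.7%, 81.8% and 81.8%). H2aj, an H2A variant, was the gene with a CDC6 and no WT origin, with folds of 3.07 in WT 1 and no peak in WT 2, 2.38 and 3.33 for APH, and 2.77 and 3.10 for CDC6. Of 19 genes for histone mRNA synthesis, processing and chaperones, 11, 11 and 15 had origins (57.9%, 57.9% and 78.9%). At a gene end the counts were 9, 10 and 14 (47.4%, 52.6% and 73.7%). Origins of the CDC6 list without WT were found at Npat, the coactivator of histone transcription (folds 3.16 and 2.24, 2.25 and 2.32, 2.77 and 2.77), at Cpsf3, the nuclease that cuts histone pre-mRNA (3.30 and 2.71, 2.99 and 3.73, 2.84 and 3.35), and at Asf1b, an H3-H4 chaperone (6.94 and 3.48, 1.92 and 2.03, 2.69 and 2.41). Zfp473, a zinc finger protein of the histone mRNA processing complex, went the other way, with a WT origin and none of the APH or CDC6 list (3.0 and 2.30, 2.49 and 2.79, 2.63 and 2.52), and was named after its values were seen. CDC6 origins without a WT origin were also found at Chaf1a and Chaf1b, subunits of the assembly factor CAF-1. Chaf1a had 2.99 and 1.99 in WT, a peak of 2.29 in APH 2 alone, and 3.0 and 4.12 in CDC6. Chaf1b had 3.07 in WT 1 alone, 1.96 and 2.30 for APH, and 3.23 and 2.89 for CDC6. Of the 10 other protein-coding genes inside the clusters, 3, 2 and 4 had origins, and Pom121l2 was the gene with a CDC6 and no WT origin (folds 2.50 in WT 1 alone, 2.75 in APH 2 alone, 3.31 and 2.62 in CDC6). The chromosome 3 cluster holds no other protein-coding gene.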

How the data were processed

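Short nascent strand libraries of 3 conditions (2 each) were analysed as deposited lists. Per the submitters' processing notes, BWA 0.7.10, SAMtools 0.1.19, Picard 1.107, MACS2 2.0.10, bedtools 2.23.0 and FastQC served to make them, and the builds named are GRCm38, mm10 and mm9. Their settings are not stated in any source used here. The deposited MACS lists give for each peak the authors' score, a fold ratio over control, and the −log10 p-value and q-value. The deposited origin lists give 2 scores per origin, whose meaning the sources used here do not explain. Percentiles are ranks by q-value within a library.

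An origin or peak counted at a gene when at least 1 bp lay within 1 kb of it. Genes, start sites and promoters came from RefSeq (GRCm38.p6). The origin lists and MACS peaks were used as labelled. Covered bases were tested as log2(bases + 100), and peaks in 1 Mb bins with a mean of at least 10 peaks as log2(number + 1). Both used lmFit and trended eBayes of limma 3.58.1 under R 4.3.3 (all 6 libraries in 1 fit, Benjamini-Hochberg over all genes or bins, 0.05). These scripts were tested on simulated data. Python 3.11.15 with Biopython 1.88 was used for overlaps and promoter identity.

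The members and lists were chosen with earlier results of these data known. Named are members with an origin, those with a peak in at most 1 library, and, as limma called none, the 3 of smallest p in each direction of each contrast; exceptions are said where they stand. Of the fixed lists, 11 of 12 variants and 19 of 19 factors matched (H3f5 was not matched). Replicate numbers did not pair the samples. The Input sample was not used here. Alternatives were other windows, list lengths, q-value limits, filters, scalings, libraries left out and a replicate block.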

Additional observations from a re-analysis of the deposited data

How the results depend on the processing

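Counts of genes with an origin changed with the choice of list and with genes whose promoters have copies. Regions in both MACS lists of a condition gave 37 genes and 23 distinct regions for WT and 53 genes for CDC6. With the lists cut to equal length, CDC6 had 16 genes and 12 origins, and with both second lists as labelled 19 genes and 14 origins. The second list labelled CDC6 1 held the whole APH origin list, so the counts from the second lists are not of CDC6 alone. Genes whose promoter was found to have a copy were left out in an alternative chosen after seeing the data. The genes and origins were then 7 and 5 for WT, 7 and 6 for APH, and 19 and 14 for CDC6. With a −log10 q-value of at least 5 the mean numbers of genes with a peak were 15.5 (WT), 17 (APH) and 26 (CDC6). With 1 library left out, the genes with a peak ranged from 37 to 59 in WT, 26 to 34 in APH and 55 to 57 in CDC6. Windows of 0 or 5 kb, gene ends and midpoints kept the counts of genes with an origin or peak, and of distinct origins, within 1.5 times.

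For limma, leaving out 1 library gave 0 to 1395 genes for APH against WT, 0 to 2329 for CDC6 against WT and 0 to 1388 for APH against CDC6, and 0 to 981, 0 to 776 and 0 to 304 bins. The counts above 0 came from leaving out a WT library. Fitting all genes without a filter called 83, 130 and 80 genes, 0 of them histone genes. The direction reversed for H2bc18 for APH against WT without WT 1 (-0.05), for H2ac22 (0.02) and H2bc22 (0.24) for CDC6 against WT by number of peaks, for H2bc22 with a library left out (-0.45 to 0.04, the last without WT 2), and for H3c14 for APH against CDC6 without scaling (-1.4e-03). These 4 genes were not called. The causes were not tested. To see whether replicate numbers pair the samples, replicate 1 minus replicate 2 was taken at each gene within each condition. Between conditions these differences correlated at -0.203 (WT with APH), -0.0199 (WT with CDC6) and -0.0543 (APH with CDC6), so the numbers mark no pairs. The fit with the replicate block called 0 genes and 0 bins in each contrast.

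Depth is unknown, each condition has 1 origin list without replicate error, and 2 libraries a condition leave little power, so a gene with no call is not shown to be unchanged. WT 1 comes from another cell line, and line and library cannot be told apart.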
